A study of Saccharum hybrid cultivar with 12 samples.

Results

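HS is the high-sugar sugarcane variety ROC22, and the 4 libraries described here compare its developing stem tissue after a foliar spray of ethephon (HS_T) with the same tissue after water (HS_CK), with 2 libraries in each group. They are 4 of the 12 libraries of the study and were chosen by their labels alone, and every unigene of the assembly was kept for the comparison. The other 8 libraries carry the same treatments in MS, the genotype YT71-210 of moderate sugar content, and LS, the low-sugar GT86-887, again with 2 libraries in each group. By the labels, the sucrose contents are 15.0% in HS, 12.6% in MS and 6.0% in LS. The plants of all groups were field grown from stem cuttings, about 8 months old, and 1 clone stands for each genotype. Ethephon plants received an ethylene solution of 400 mg per L made from ethephon (2-chloroethyl phosphonic acid), control plants received water, and the stem was cut 7 days later, 20 cm above the node of the 2nd youngest fully expanded leaf. The titles number the replicates 1 and 2, the study calls them biological repeats, and the field plot behind each is not given in the sources used here, so p-values measure only the spread between these libraries.

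Ethephon breaks down inside plant tissue and releases ethylene, a gaseous hormone that regulates ripening, senescence, stress responses and elongation. Ethylene is sensed by receptors in the membrane of the endoplasmic reticulum, and the signal ends in the nucleus at transcription factors, among them the ethylene responsive factors (ERF), which switch further genes on or off. In sugarcane, ethephon is sprayed as a ripener, and the developing stalk is where sucrose is unloaded, split, rebuilt and stored while cell walls are laid down.

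The measured quantity was the RNA level of unigenes, the transcripts assembled from the reads, as an expected read count. Of 163054 unigenes, 115117 had a count in at least 1 HS library, 62656 had one in all 4 HS libraries, and 54433 had enough counts in the series to be tested. The HS libraries held between 20854187 and 23787274 counts. The files pair no unigene with a gene name, so the tissue could not be checked against marker genes, and functions are given only for 78 unigenes that the text of the paper annotates. In bulk tissue, more cells of a type and more RNA per cell cannot be told apart. The HS_CK replicates stood as far apart from each other as water libraries stood from ethephon libraries. The median absolute log2 difference over unigenes was 0.31 between the HS_CK replicates, 0.22 between the HS_T replicates and 0.24 to 0.28 in the 4 pairs across treatments. The root mean square difference, which weights large gaps more, was 0.82 between the HS_CK replicates, 0.60 between the HS_T replicates and 0.59 to 0.92 across treatments, so by that measure HS_CK replicate 1 lay farther from HS_T replicate 2 than from its own partner. Sampling noise alone does not give such gaps: the chi-square of the counts, divided by its degrees of freedom, was 11.4 for the HS_CK replicates and 7.07 for the HS_T replicates, so none was a library deposited again.

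To find out which RNAs ethephon moved in the high-sugar clone, HS_T was tested against HS_CK across all tested unigenes. A unigene was called at an edgeR p-value under 0.005, adjusted over all tested unigenes, together with a change of more than 2-fold. Few unigenes passed. In HS, 6 of 54433 were called (0.011%), and all 6 rose. No unigene fell. At an unadjusted p under 0.05 there were 2187 (4.02%), of which 968 had a negative change (1.78% of those tested) and 1219 a positive one (2.24%). DESeq2 with the same limits called 64 as rising (0.118%) and 27 as falling (0.0496%), 0.167% in all, and the 6 were among its calls. These shares are of all 54433, although DESeq2 gave no adjusted p to 16886 of them and so could not call those. At an adjusted p under 0.05 edgeR placed 19 unigenes (0.0349%), all higher in HS_T. The median log2 fold change was 0, with a 5th percentile of −0.82 and a 95th of 0.94. The exact two-sided permutation test of 2 libraries against 2 cannot go below p = 0.333, so each adjusted p rests on the spread shared over groups and unigenes.

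**Figure D1:**
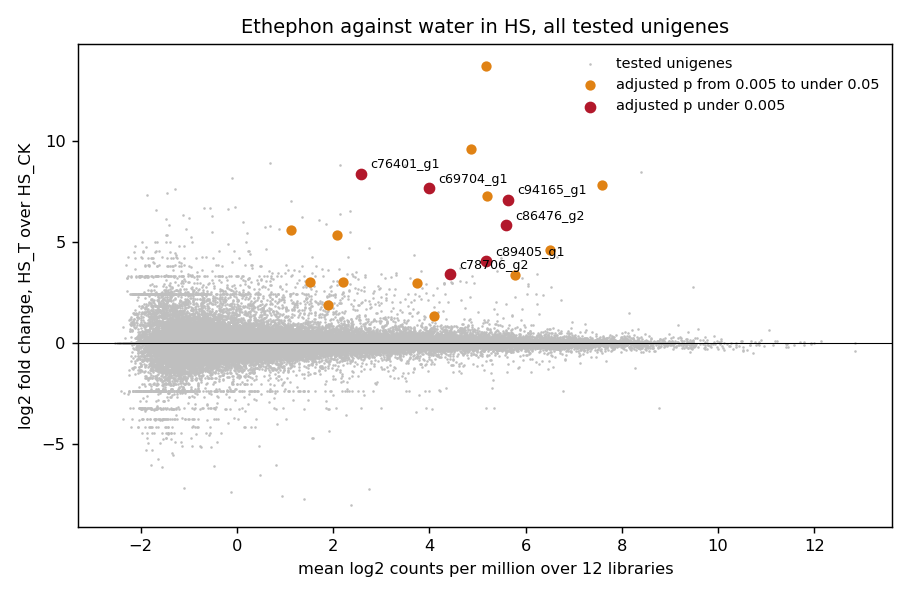
Log2 fold change of HS_T over HS_CK (vertical axis) against the mean level over 12 libraries (log2 CPM, the count scaled to library size, horizontal axis) for 54433 tested unigenes, 1 point each. The 6 called unigenes (red) and the other unigenes at an adjusted p under 0.05 (orange) all lie above 0, and the widest scatter is among unigenes of low level.

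The called unigene with the smallest p was c94165_g1, for which no function is given. It had 29 and 19 counts in HS_CK replicates 1 and 2, and 3650 and 2568 in HS_T replicates 1 and 2. It rose 135-fold, a log2 fold change of 7.08 ± 0.39 (SE, adjusted p = 5.96e-05). Its FPKM, a level per unigene length and library size, went from 1.08 and 1.27 to 136 and 105. The treated libraries thus lay far above both water libraries, and the gap between treatments dwarfed that between replicates. The unigene c86476_g2 behaved alike, with 51 and 56 counts in HS_CK and 3482 and 2376 in HS_T. It rose 56.7-fold, by 5.83 ± 0.33 on the log2 scale (adjusted p = 5.96e-05). These 2 unigenes remained called whichever HS library was left out, with adjusted p of at most 0.00358.

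Among the 6, c89405_g1 alone has an annotation, as a methyltransferase, an enzyme that moves a methyl group onto another molecule. It had 269 and 208 counts in HS_CK and 4778 and 2778 in HS_T, and it rose 16.5-fold (log2 4.04 ± 0.32, adjusted p = 0.00121). The study picked this unigene from the same libraries, so its annotation list is not independent evidence of its rise. Its 2 treated values differed from each other more than those of c94165_g1, and still did not overlap the water values. The unigene c78706_g2 had 105 and 61 counts in HS_CK and 1038 and 627 in HS_T, a 10.5-fold rise (log2 3.40 ± 0.26, adjusted p = 0.000887). It had the smallest fold of the 6 and a water level well above the detection floor.

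The remaining 2 were almost silent after water. The unigene c69704_g1 had 8 and 2 counts in HS_CK and 1187 and 780 in HS_T, a 201-fold rise (log2 7.65 ± 0.64, adjusted p = 0.00150). The unigene c76401_g1 had 3 and 0 counts in HS_CK and 570 and 444 in HS_T, which gives a ratio of 356 with an exact 95% counting interval of 121 to 1727 (adjusted p = 0.00341). With so few counts in the controls, only the treated level is well measured for these 2. By FPKM, c76401_g1 ranked 68 and 90 among all unigenes of HS_T replicates 1 and 2. The unigenes c78706_g2 and c89405_g1 remained called only when HS_T replicate 2 was left out. Leaving out any HS library took c69704_g1 and c76401_g1 past the limit, to adjusted p between 0.00542 and 0.0328. The calls then numbered 3 when HS_CK replicate 1 was dropped, 2 when HS_CK replicate 2 was, 2 when HS_T replicate 1 was and 4 when HS_T replicate 2 was. All 6 still had positive fold changes in each of these fits.

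**Figure D2:**
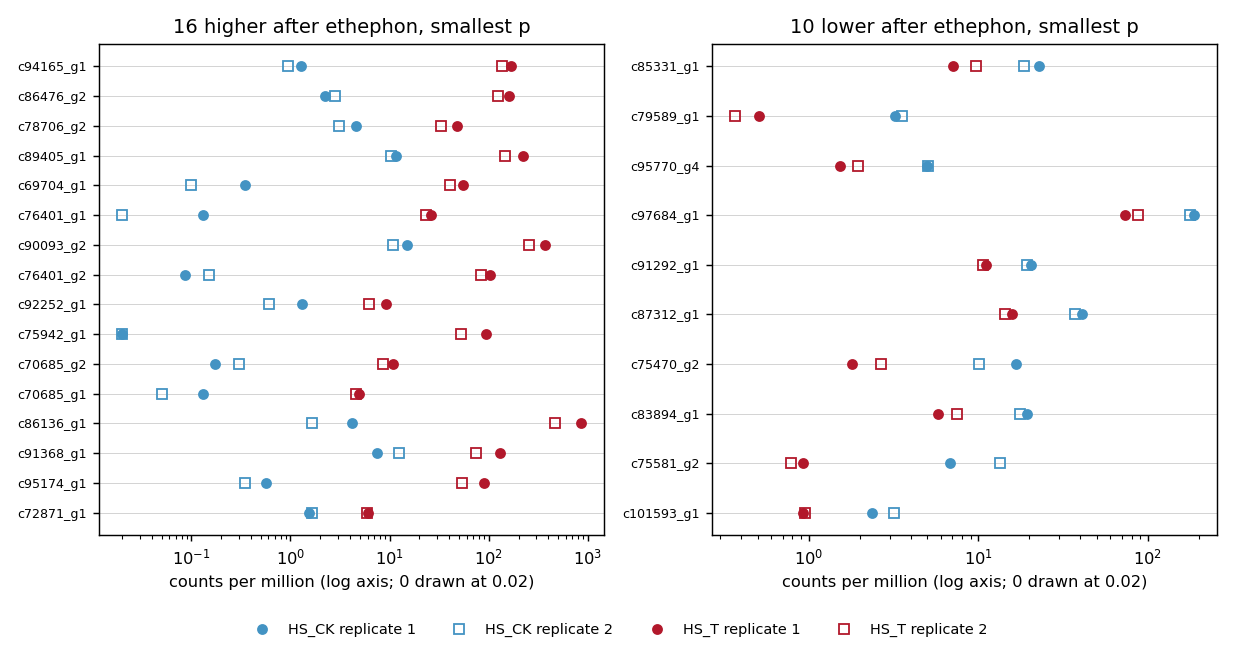
CPM (counts scaled to library size, log axis, 0 drawn at 0.02) of 26 unigenes in each HS library, with water in blue, ethephon in red, filled circles for replicate 1 and open squares for replicate 2. In all 16 unigenes on the left both HS_T values exceed both HS_CK values, and in all 10 on the right, none of which passed the test, they lie below them. The 10 on the right, and those on the left that were not called, were chosen among unigenes whose groups do not overlap.

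Behind the 6 came unigenes that the stricter limit left out and the looser one of 0.05 took in. The most abundant of them was c86136_g1, with 95 and 33 counts in HS_CK and 18708 and 8919 in HS_T. Its log2 fold change was 7.82 ± 0.99 and its adjusted p 0.0333. The HS_T replicates of c86136_g1 differed 1.85-fold in CPM (counts scaled to library size), and both were far above the water libraries. The unigene c90093_g2 had 344 and 214 counts in HS_CK and 8064 and 4919 in HS_T (log2 4.61 ± 0.47, adjusted p = 0.00755). The unigene c91368_g1 went from 171 and 251 counts to 2796 and 1415 (log2 3.34 ± 0.43, adjusted p = 0.0333). Both had clear RNA after water, so their folds do not rest on counts near 0.

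Others had next to no RNA after water. The unigene c75942_g1 had no count in either HS_CK library and 2058 and 1005 in HS_T, which is at least 1074-fold higher against a floor of 3 counts over the group (adjusted p = 0.0159). The unigene c76401_g2, of the same assembly component as the called c76401_g1, had 2 and 3 counts in HS_CK and 2250 and 1607 in HS_T (adjusted p = 0.0125). Unigenes of 1 component can share reads, so c76401_g1 and c76401_g2 are not separate evidence. The unigene c95174_g1 had 13 and 7 counts in HS_CK and 1941 and 1015 in HS_T (log2 7.25 ± 0.93, adjusted p = 0.0347). The pair c70685_g1 and c70685_g2, again from 1 component, had 1 to 6 counts in the water libraries and 87 to 232 in the ethephon libraries (adjusted p = 0.0220 and 0.0177). In each of these unigenes the lower ethephon library held more than 10 times the counts of the higher water library.

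Smaller folds were seen for c92252_g1, with 30 and 12 counts in HS_CK and 201 and 119 in HS_T (log2 3.00 ± 0.33, adjusted p = 0.0125), and for c72871_g1, with 35 and 33 against 130 and 113 (log2 1.90 ± 0.25, adjusted p = 0.0409). The last 3 of the 19, c85093_g1, c86201_g1 and c100498_g1, had log2 fold changes of 3.00, 2.96 and 1.36 at adjusted p of 0.0450, 0.0450 and 0.0495. They are named here after their values were seen. All 19 unigenes, which come from 17 components, were called by DESeq2.

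The 19 unigenes had a further feature that their selection did not use, the order of the treated replicates. All 19 were higher in HS_T replicate 1 than in replicate 2, by 1.01 to 1.94 times with a median of 1.43, whereas 47.6% of all tested unigenes were. Together they held 0.00611% and 0.00543% of all counts in HS_CK and 0.233% and 0.143% in HS_T. In HS_CK the order was mixed, with 11 of 19 higher in replicate 1.

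Lower levels after ethephon were smaller and none passed the test. The 10 unigenes of smallest p whose HS_T values lay below both HS_CK values had adjusted p between 0.0581 and 0.168. The first of them, c85331_g1, had 525 and 370 counts in HS_CK and 154 and 184 in HS_T (log2 −1.31 ± 0.18, adjusted p = 0.0581). The most abundant, c97684_g1, had 4310 and 3551 counts in HS_CK and 1589 and 1675 in HS_T, 2.27 times lower (log2 −1.18 ± 0.18, adjusted p = 0.0808). In both, the replicates lay close together and the groups did not overlap. The unigene c79589_g1 had 74 and 71 counts in HS_CK and 11 and 7 in HS_T (log2 −2.93 ± 0.42, adjusted p = 0.0629). The greatest fold of the 10 was that of c75581_g2, with 156 and 269 counts in HS_CK and 20 and 15 in HS_T, 11.7 times lower at an adjusted p of 0.149. DESeq2 called 8 of the 10. A lack of overlap was common by itself: in HS, 14.3% of tested unigenes had both HS_T values above both HS_CK values and 14.1% had both below.

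The 78 annotated unigenes fall into 10 lists by function, taken from the text of the paper, which picked them from the same libraries, so the lists are not independent evidence of any direction. In HS, 1 of 78 rose (c89405_g1) and 0 fell by edgeR, and DESeq2 also called c89405_g1 alone. At an unadjusted p under 0.05 there were 7 with a positive and 2 with a negative change, of the 78, against 2.24% and 1.78% of all tested unigenes. Their median log2 fold change was −0.06, beside 0 over all tested unigenes.

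Enzymes that make sucrose showed little difference. The 5 listed unigenes, for sucrose phosphate synthase (SPS1F), which joins the sugar units, sucrose phosphatase (SPP2), which removes the phosphate, and sucrose synthase (SUS3 and SUS4), which works in both directions, had log2 fold changes from 0.05 to 0.45 with a median of 0.19, and 0 of 5 passed the test. Sucrose synthase SUS4, c96004_g2, was by far the most abundant in reads, with 11424 and 7771 counts in HS_CK and 13294 and 11446 in HS_T (log2 0.45 ± 0.21, unadjusted p = 0.0572). The water replicates of c96004_g2 differed nearly as much as the means of the treatments did. The cytosolic invertase CINV2, c93030_g1, which splits sucrose, had 1313 and 884 counts in HS_CK and 1181 and 1016 in HS_T (log2 0.08 ± 0.17). The cell wall invertase CWINV3, c102611_g1, had 644 and 452 against 536 and 516 (log2 0.03 ± 0.16), with overlapping groups in both. The phloem loading unigene c86791_g4 was scarce, with 7 and 4 counts in HS_CK and 3 and 1 in HS_T (unadjusted p = 0.0918).

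The 4 sucrose alpha-glucosidases, which hydrolyse sucrose, had a median log2 fold change of −0.04, and none passed. The most abundant, c93760_g1, was nearly level over the 4 libraries, at 3256 and 2971 counts in HS_CK and 3141 and 2722 in HS_T (log2 −0.02 ± 0.12). The 5 unigenes of starch synthesis and hexose phosphate enzymes had a median of −0.03, with values from −0.45 to 0.05, and none passed.

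The ATPases, proteins that split ATP to drive transport or other work, were the list in which both HS_T libraries exceeded both HS_CK libraries for every member, as they did for 14.3% of all tested unigenes. All 4 had an unadjusted p under 0.05, where 2.24% of all tested unigenes had one with a positive change, and 0 of 4 passed the adjusted test. The paper lists these 4 because it found them induced by ethylene in the same study. Their shared direction is thus partly set by that choice and is not independent evidence. The strongest was c87456_g3 (AATP1), with 23 and 37 counts in HS_CK and 416 and 199 in HS_T (log2 3.38 ± 0.67, adjusted p = 0.289). The ACA2 unigene c87964_g1, named after a calcium pump of Arabidopsis, had 223 and 204 counts in HS_CK and 393 and 230 in HS_T (log2 0.60 ± 0.21, unadjusted p = 0.0143). In c87964_g1 the second treated library stood just above the water libraries and the first well above them. The other 2, c101111_g2 and c79387_g1, had log2 fold changes of 1.86 ± 0.66 and 0.99 ± 0.36 at unadjusted p of 0.0170 and 0.0201.

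Cell wall unigenes had mostly negative fold changes, where 48.0% of all tested unigenes had one, and none passed. Some of these were near 0, such as c83266_g1 (log2 −0.004) and c83285_g1 (log2 −0.007). All 4 pectin enzymes, which cut the pectin of the wall or remove its methyl esters, had negative log2 fold changes with a median of −0.33. The pectinesterase c90370_g1 had 314 and 204 counts in HS_CK and 79 and 115 in HS_T (log2 −1.31 ± 0.58, unadjusted p = 0.0444). The 4 unigenes of glucan and cellulose synthesis had a median of −0.35, and c101169_g3 had 65 and 72 counts against 45 and 35 (log2 −0.71 ± 0.30, unadjusted p = 0.0345). The paper names c101169_g3 as a cellulose synthase in one place and among transcription factors in another, and it is counted only in this list. Another member, c83285_g1, takes its annotation from its neighbour in a sentence of the paper. One of that list, the glucan synthase c86041_g2, had at most 1 count in any HS library and could not be compared.

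Of the 27 transcription factors, 0 passed, 8 had a positive and 19 a negative change, and the median was −0.10. Over all tested unigenes, 47.4% had a positive and 48.0% a negative change. The WRKY factor c97708_g1, of a plant family known from defence and senescence, had 331 and 324 counts in HS_CK and 780 and 430 in HS_T (log2 0.93 ± 0.21, unadjusted p = 0.000899, adjusted p = 0.374). The listed ethylene responsive factor, c81582_g1, had 277 and 229 counts in HS_CK and 155 and 199 in HS_T (log2 −0.42 ± 0.21, unadjusted p = 0.0727). The groups did not overlap in either, the WRKY factor being higher and the ERF lower after ethephon, and neither passed the adjusted edgeR test. DESeq2 called neither. Its adjusted p for the WRKY factor was 0.00203, but the log2 fold change of 0.92 was short of the 2-fold limit. For the ERF c81582_g1, the paper reports by quantitative PCR a rise after ethylene in every genotype. That is the other direction than in these HS libraries. The heat shock factor c101031_g1 had 2066 and 2263 counts against 2099 and 2521, with overlapping CPM. Among the 17 methyltransferases, the other 16 had log2 fold changes from −0.82 to 0.38 while c89405_g1 stood at 4.04. The 4 acetyltransferases had a median of −0.01, and none passed.

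**Figure D3:**
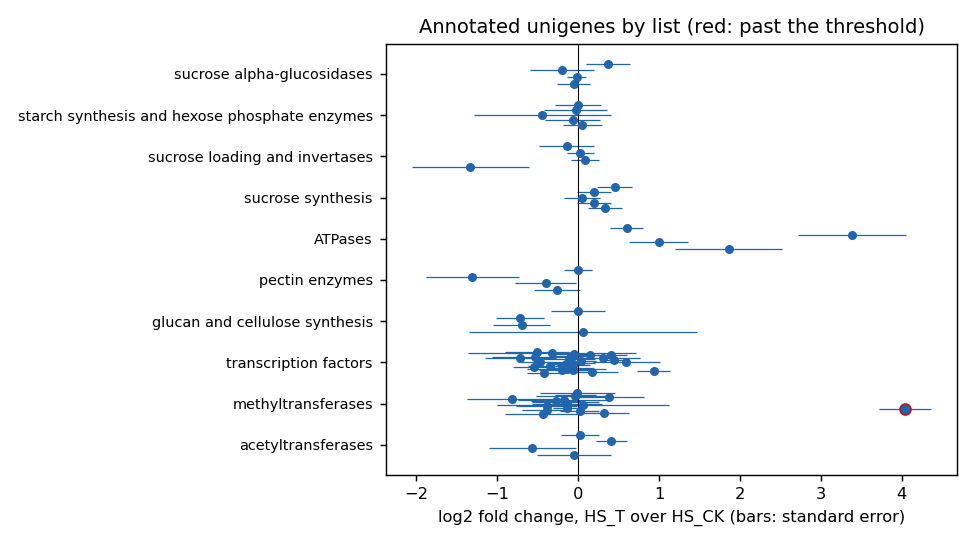
Log2 fold change of HS_T over HS_CK (horizontal axis, bars show the standard error) for 78 annotated unigenes in 10 lists, 1 point each. The methyltransferase c89405_g1 (ringed in red, 4.04) is the called one, the 4 ATPases lie to the right of 0, and most other unigenes lie within 1 of it.

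The 19 unigenes were next followed into the other genotypes, whose libraries had no part in their selection apart from the shared estimate of spread. In MS, 19 of 19 had positive fold changes, 15 of them at an adjusted p under 0.05, and 1 was called, c94165_g1. In LS, 18 had positive fold changes, 17 were at an adjusted p under 0.05, and 13 were called, where 2.24% of all tested unigenes were called in LS and 0.00184% in MS. At an adjusted p under 0.05, 3425 of all 54433 tested unigenes were higher and 1776 lower in LS_T than in LS_CK. In MS these were 199 and 102. The share of all tested unigenes with a positive change was not computed for MS or LS. The median log2 fold change was 5.33 in HS, 4.92 in MS and 3.26 in LS. The share of the 19 in all counts reached 0.131% and 0.136% in MS_T and 0.0565% and 0.0443% in LS_T. The one with a negative value in LS was c72871_g1, with 67 and 70 counts in LS_CK and 58 and 32 in LS_T (log2 −0.50 ± 0.25).

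One LS water library, LS_CK replicate 2, held more of these RNAs than its partner, in 18 of the 19 unigenes. The share of all tested unigenes higher in LS_CK replicate 2 was not computed. Whether this order is particular to the 19 can thus not be told. For c86136_g1 the counts were 26 and 277 in LS_CK replicates 1 and 2, beside 2724 and 2736 in LS_T. For c76401_g2 they were 5 and 87, beside 611 and 453. In HS neither water library held more than 95 counts of either unigene. The part of LS_CK replicate 2 in the smaller LS folds of these unigenes was not tested.

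**Figure D4:**
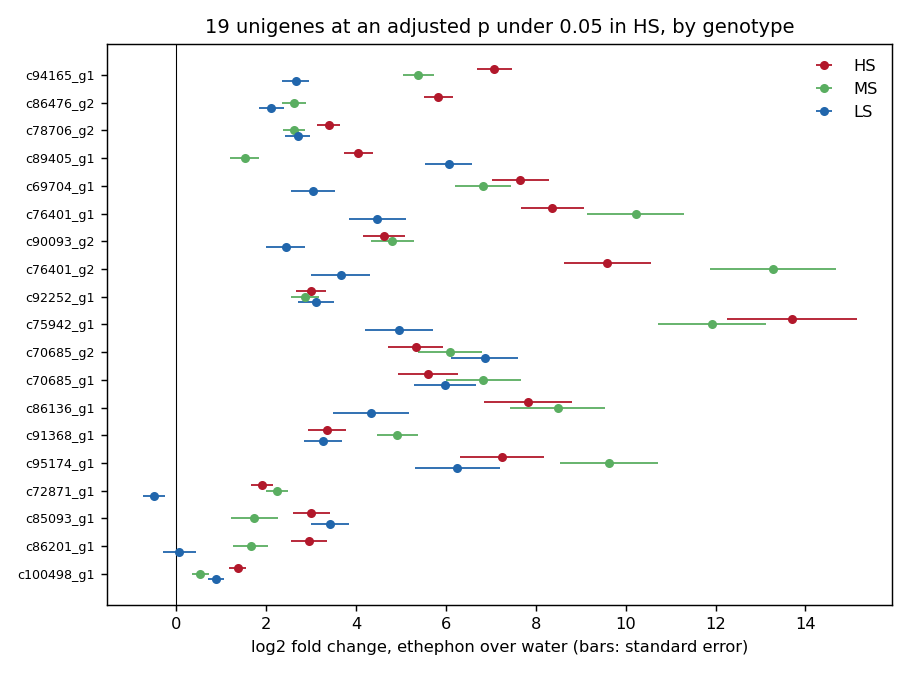
Log2 fold change of ethephon over water (horizontal axis, bars show the standard error) in HS (red), MS (green) and LS (blue) for the 19 unigenes at an adjusted p under 0.05 in HS. Every HS and MS point lies above 0, c72871_g1 is below 0 in LS, and the LS points of c94165_g1 and c86476_g2 (2.65 and 2.12) lie far to the left of their HS points (7.08 and 5.83).

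Whether the response to ethephon itself differed between genotypes was tested as the difference of the fold changes in 1 model. HS and LS differed in 21 unigenes (0.0386%), of which 18 had the lower and 3 the higher fold change in HS. HS and MS differed in 0 by edgeR, with 3178 at an unadjusted p under 0.05 (5.84%) and 56 by DESeq2. Both leading unigenes of HS were among the 21. The log2 fold change of c94165_g1 was 4.43 ± 0.46 higher in HS than in LS (adjusted p = 0.00479), and that of c86476_g2 3.71 ± 0.39 higher (adjusted p = 0.00479). Their LS_CK libraries had 104 and 196 counts for c94165_g1 and 288 and 359 for c86476_g2, several times those of HS_CK. The third, c95827_g1, had 129 and 94 counts in HS_CK and 67 and 74 in HS_T, against 105 and 126 in LS_CK and 5 and 4 in LS_T, so that it fell in LS (log2 −4.52 ± 0.33, adjusted p = 9.66e-05).

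The 18 with the lower fold change in HS all rose in LS, and 0 of them were called in HS. Over all 21 the median log2 fold change was 0.14 in HS and 3.50 in LS. Since the 21 were chosen for a difference between HS and LS, the gap between these medians is raised by the choice. The unigene c78417_g1 had 367 and 291 counts in HS_CK and 368 and 337 in HS_T, against 22 and 20 in LS_CK and 265 and 222 in LS_T. Its log2 fold change was 0.18 ± 0.15 in HS and 3.66 ± 0.19 in LS (adjusted p of the difference 0.00107). The unigene c96516_g1 had 383 and 1201 counts in HS_CK and 548 and 336 in HS_T, against 93 and 81 in LS_CK and 8277 and 5105 in LS_T. For c78417_g1 the water level of HS was already above the ethephon level of LS, and for c96516_g1 it was not. Of the 18, 17 had both HS_CK values above both LS_CK values in CPM, with a median ratio of 2.86 over the 18. After ethephon, 15 of the 18 had both LS_T values above both HS_T values. The counts of 17 and 15 use the same values that chose the 18, and that choice favours them. The matching shares over all tested unigenes were not computed, so these counts are a description only. The count of 21 rested on single libraries. It was 0 when HS_T replicate 1, HS_T replicate 2 or LS_CK replicate 2 was dropped, 2 when HS_CK replicate 2 was and 146 when HS_CK replicate 1 was.

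Of the 78 annotated unigenes, 0 differed between HS and LS or between HS and MS. The nearest was the ACA2 unigene c87964_g1, with 220 and 209 counts in LS_CK and 2082 and 1314 in LS_T, a log2 fold change 2.49 ± 0.29 lower in HS than in LS (adjusted p = 0.00594). The median log2 fold change of the 4 ATPases was 1.43 in HS and 3.22 in LS, and 3 of them were called in LS, where 2.24% of all tested unigenes were. The paper lists these 4 as induced by ethylene and reports that induction in LS from the same libraries. Their LS values are thus favoured by that choice and are not independent evidence of a difference from HS.

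The unigenes that LS changed were looked up in HS as a whole. LS_T against LS_CK called 1217 unigenes (2.24%). Of the 1042 that rose in LS, 821 had a positive fold change in HS (78.8%, against 47.4% of all tested unigenes), and 221 had one at an unadjusted p under 0.05 (21.2%, against 2.24%). Their median log2 fold change was 0.28 in HS and 2.58 in LS, and 123 were over 2-fold higher in HS (11.8%, against 4.65% of all tested unigenes). Of the 175 that fell in LS, 150 had a negative fold change in HS (85.7%, against 48.0% of all tested unigenes), 51 at an unadjusted p under 0.05 (29.1%, against 1.78%), with a median of −0.35 in HS and −1.92 in LS. Since these unigenes were chosen for a large change in LS, the LS medians are raised by the choice and the sizes in HS and LS are not on an equal footing. Without HS_CK replicate 1 the share of the 1042 with a positive change was 63.8%, and without HS_CK replicate 2 it was 85.8%. When LS_CK replicate 2 was left out, LS called only 87 rising and 8 falling, of which 88.5% and 100% had the same direction in HS.

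Detection in single replicates was counted next. In HS_CK, 29680 unigenes had counts in 1 replicate and none in the other, 29.4% of those detected, and in HS_T 28559 did (28.1%). Of these, 90.6% in HS_CK and 92.5% in HS_T had only 1 to 3 counts, a level at which 0 in the other library is within sampling noise. Those with 30 or more counts in the replicate that had them numbered 309 in HS_CK and 17 in HS_T, and 4 to 111 in the MS and LS groups. The highest in HS_T was c81132_g1, with 0 and 95 counts in HS_T and 0 and 5 in HS_CK. The highest in HS_CK was c83047_g1, with 0 and 3079 counts in HS_CK and 1433 and 13786 in HS_T.

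Most of the HS_CK unigenes of that kind shared 1 pattern over the libraries. In 301 unigenes, from 281 components, HS_CK replicate 1 had 0 counts and replicate 2 had at least 30, while only 8 showed the reverse. Their summed counts were 0 and 49752 in HS_CK and 22618 and 212283 in HS_T, 1.02% of all counts of HS_T replicate 2. MS_CK replicate 2 held 14982, and no other library more than 85. Of the 301, 300 were detected in HS_T replicate 1, 299 in HS_T replicate 2 and 300 in MS_CK replicate 2, against 35 in MS_CK replicate 1 and 4 to 10 in each of the other 6 MS and LS libraries. The ratio of HS_T replicate 2 to HS_CK replicate 2 had a median of 3.54 with quartiles of 2.80 and 4.74. The treatments overlapped in this set, since HS_CK replicate 2 exceeded HS_T replicate 1.

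Of these 301, 299 were tested and 296 had a positive log2 fold change with a median of 2.01, and 0 were called by edgeR or DESeq2, with 1 at an unadjusted p under 0.05. For c83047_g1 the log2 fold change was 2.36 ± 2.18. None of them was among the 19. With these unigenes out of the library totals and the test, 8 were called in HS in place of 6, with c76401_g2 and c90093_g2 added. The files give no names for them.

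**Figure D5:**
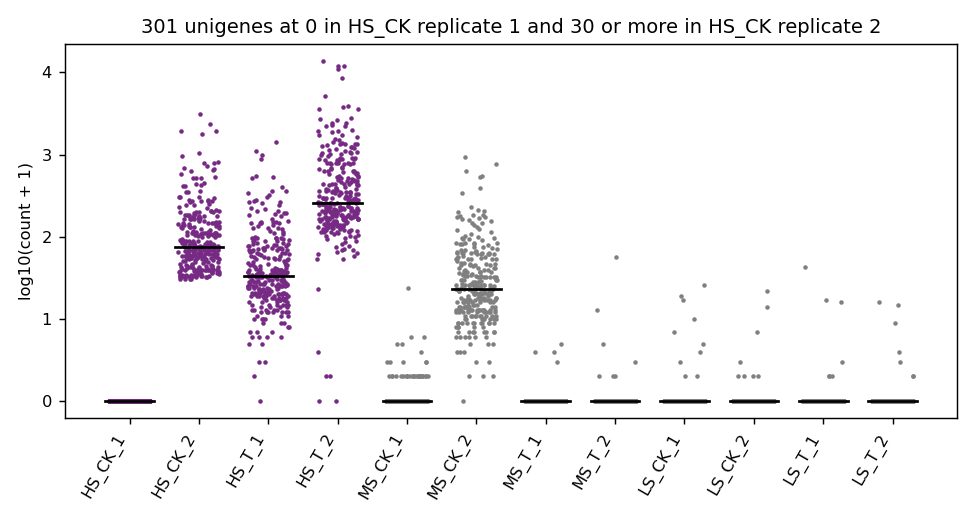
Log10 of count + 1 (vertical axis) in each of the 12 libraries for the 301 unigenes with 0 counts in HS_CK replicate 1 and at least 30 in HS_CK replicate 2, 1 point each with the median as a line. HS_T replicate 2 is highest, HS_CK replicate 2, HS_T replicate 1 and MS_CK replicate 2 follow, and the other libraries lie at or near 0.

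Unigenes detected in both libraries of 1 treatment and neither of the other were scarce. There were 2612 in HS_T alone and 2361 in HS_CK alone, and the median summed count was 3 in each set. A sum of 30 or more was reached by 9 in HS_T alone and 2 in HS_CK alone. After c75942_g1, the next in HS_T alone were c81640_g1, with 85 and 27 counts (at least 39.3-fold higher, adjusted p = 0.806), and c61940_g1, with 91 and 14 (at least 36.8-fold higher, adjusted p = 0.473). The highest in HS_CK alone was c82922_g1, with 50 and 12 counts (at least 19.6-fold lower in HS_T, adjusted p = 0.684). These bounds cover counting error only. Enough counts for the test were held by 118 in HS_T alone and 99 in HS_CK alone. Of those tested, 0 were called by edgeR and 64 and 49 had an unadjusted p under 0.05, which the choice of unigenes at 0 in 1 treatment favours (2.24% rising and 1.78% falling over all tested unigenes). DESeq2 called c75942_g1.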

How the data were processed

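Poly(A) RNA of stalk tissue was sequenced as paired ends on an Illumina HiSeq instrument. For the deposited expected counts, the authors removed low-quality and short reads, assembled all libraries with Trinity, took as unigene the longest transcript per subcomponent and assigned reads with RSEM. The authors also deposited FPKM, which divides by the length of the unigene and the size of the library. Technical replicates had been merged, and their number is given differently in the labels and the paper. Software versions are not given in the sources used here.

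Counts (0.893 to 1.19% not whole) were rounded. edgeR 4.0.16 in R 4.3.3 fitted all 12 libraries in 6 groups with TMM scaling, filterByExpr at a minimum count of 10, glmQLFit and glmQLFTest, which left 6 residual degrees of freedom. P-values were adjusted over 54433 unigenes by the Benjamini-Hochberg method. SE is the log2 fold change divided by the square root of F. Differences between genotypes were contrasts in the same model. At library totals of 20854187 to 23787274 counts, counting error limits unigenes with few counts. Folds against 0 counts use a floor of 3 counts over the group, and 1 to 3 counts get an exact 95% interval; both cover counting error only. Alternatives used DESeq2 1.42.0, limma 3.58.1 on log2(FPKM + 1) and the R package data.table (version 1.17.8), with figures from Python 3.11.15, pandas 2.3.3 and matplotlib 3.10.9. The edgeR test was first tested on simulated data.

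Named are the called unigenes, the 10 higher and 10 lower of smallest p with groups that do not overlap, the unigenes annotated in the text of the paper, the highest 1-replicate unigene of each HS group, and up to 10 that differ from LS or MS. Of the annotated ones, values are given for those that lead their list. Members, lists and tests were chosen with earlier results of these data known. Other unigenes are named after their values were seen.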

Additional observations from a re-analysis of the deposited data

Results flagged for a closer look

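The ethephon response of 21 unigenes differed between HS and LS by edgeR's test of the difference, at an adjusted p under 0.005 with a difference over 2-fold. The log2 fold change in HS minus that in LS was positive for c94165_g1 (4.43), c95827_g1 (3.95) and c86476_g2 (3.71). It was negative for the 10 of smallest p, which were c78417_g1 (−3.48), c78200_g1 (−4.99), c85159_g2 (−4.10), c81012_g1 (−5.19), c79242_g1 (−3.01), c104542_g1 (−2.33), c89535_g2 (−3.61), c91823_g1 (−4.05), c96516_g1 (−7.21) and c102556_g1 (−1.97). In HS itself none of these 10 was called, and their log2 fold changes lay between −0.84 (c96516_g1) and 0.84 (c89535_g2). For c91823_g1 all HS and MS libraries held 13 to 32 counts and the LS_T libraries 456 and 260. The count of 21 fell to 0 without LS_CK replicate 2, an alternative chosen after seeing the data.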

How the results depend on the processing

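All 6 called unigenes kept a positive fold change under each of the 14 alternatives run for them, but most calls depended on the libraries and the test. DESeq2's Wald test called 91 (64 rising, 27 falling), testing all 156702 unigenes with a count called 863 (730 rising, 133 falling), the looser limit of an adjusted p under 0.05 gave 19, and the HS libraries alone, with 2 residual degrees of freedom, gave 3. Leaving out each HS library gave 2 to 4 calls, all rising. DESeq2's size factors gave 6, the filter on HS groups 5, limma 7 and the removal of the 301 unigenes absent from HS_CK replicate 1 gave 8. For HS against LS, 21 unigenes became 39 with DESeq2's size factors, 864 with DESeq2's Wald test, 548 at the looser limit, 0 with only the 8 libraries compared, 0 without LS_CK replicate 2 and 0 to 146 without each HS library. For HS against MS, 0 became 56 with DESeq2's Wald test and 0 to 1 without each HS library. Replicate numbers share no plot in the sources used here, so the main test did not pair libraries by number. Same-numbered HS libraries deviated together at a correlation of 0.24 (MS −0.11, LS −0.02). Without the 301 unigenes absent from HS_CK replicate 1, the HS value was 0.04. Whether the numbers pair the samples cannot be told from these correlations. A replicate block gave 8 calls in HS, 26 for HS against LS and 2 for HS against MS. With presence set at 5 counts, 1822 unigenes in HS_CK and 1188 in HS_T occurred in 1 replicate, and 19 in HS_T and 4 in HS_CK in 1 treatment; at 10 counts these were 695, 218, 7 and 1. The 301 unigenes were 629 at a minimum of 10 counts. The share of unigenes rising in LS with a positive HS change was 73.6% at the looser limit, 75.1% with DESeq2, 88.5% without LS_CK replicate 2 and 63.8% to 85.8% without each HS library. For those falling in LS the share was 69.3%, 79.6%, 100% and 77.7% to 89.1%. The settings on the 301 unigenes and on LS_CK replicate 2 were chosen after seeing the data. Over all alternatives, the 26 leading unigenes (6 called, 10 higher and 10 lower) kept their sign in 364 of 364 values and the annotated unigenes in 1001 of 1081. The cause of these shifts was not tested. With 2 libraries a group and 6 residual degrees of freedom, folds of low-count unigenes are the least certain.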

Other observations

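Unigenes that ethephon changed in MS were also looked up in HS. At an adjusted p under 0.05 in MS, 199 were higher and 102 lower after ethephon. Of the 199, 193 had a positive fold change in HS (97.0%, against 47.4% of all tested unigenes), 133 of them at an unadjusted p under 0.05 (66.8%, against 2.24%), with a median log2 fold change of 0.84 in HS and 2.21 in MS. Of the 102, 58 had a negative fold change in HS (56.9%, against 48.0% of all tested unigenes), with medians of −0.08 in HS and −2.35 in MS. The share with a negative sign was thus not far from that of all tested unigenes. At an unadjusted p under 0.05 there were 25 with a negative (24.5%, against 1.78% of all tested unigenes) and 5 with a positive change. The MS medians are raised in size by the choice of these unigenes in MS.

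Summed over assembly components, 6 of 41208 components were called in HS, all higher after ethephon. Of these, 5 hold a called unigene, and the sixth is c90093 (log2 fold change 4.41, adjusted p = 0.00241).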
